A study of Mus musculus with 9 samples.

Results

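The 37 genes described here encode the folding, export and stress-response machinery of the endoplasmic reticulum (ER). They comprised 15 ER chaperones and folding enzymes, 7 genes of ER-associated degradation (ERAD), 5 sensors and transcription factors of the unfolded protein response (UPR), 4 genes of the ATF4 branch and 6 genes of protein translocation into the ER. The genes were listed by name and role, and all 37 of them were found among the 19329 gene symbols of the tables. All 37 also passed the filter on low counts, as did 12091 genes in total.

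The livers came from 9 mice of the inbred C57BL/6J strain, with no altered gene named in the labels. The 5 Chow mice stayed on standard mouse chow, and the 4 HSD mice received a high-sucrose diet from 8 weeks of age for 3 weeks. Livers of both groups were taken at 11 weeks of age. The diet served as a mouse model of non-alcoholic fatty liver disease, and the comparison asked which hepatic transcripts differed between HSD and Chow. Each library is a separate animal. Standard deviations (SD) below give the variation between animals, and standard errors (SE) the uncertainty of a diet difference. No source used here names the sex of the animals.

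Secreted and membrane proteins fold in the ER with the help of chaperones, and misfolded ones are returned to the cytosol and degraded by ERAD. When unfolded proteins accumulate, the membrane sensors IRE1 (*Ern1*), ATF6 (*Atf6*) and PERK (*Eif2ak3*) start the UPR. IRE1 splices the mRNA of the transcription factor *Xbp1*, ATF6 is cleaved into a transcription factor, and PERK slows translation while favouring that of *Atf4*. Hepatocytes secrete most plasma proteins, and the liver carries a further ER-bound transcription factor, CREBH (*Creb3l3*), known for its part in lipid metabolism and the acute phase response. The values below are gene-level mRNA amounts, which show neither the splicing of *Xbp1* nor the cleavage or phosphorylation of a sensor.

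The libraries held 12769668 to 25913869 estimated counts in Chow and 14040723 to 24825322 in HSD. Hepatocyte markers, *Alb* and 4 others, summed to 60569 to 123655 normalized counts (CPM, counts scaled to a common library size) in Chow and to 91211 to 124028 in HSD, so the tissue label held. Within Chow, 2 livers stood apart. Chow 1 held 10112 CPM of *Saa2* and 19791 CPM of *Hp*, both acute phase genes, and the mean level of 9 acute phase genes lay 4.55 above the mean of all livers on the log2 scale there and between -0.90 and 0.37 in the other 8 livers. The clock gene *Arntl* also set Chow 1 and Chow 3 apart, with levels of 4.40 and 9.24 CPM, since its range was 1.35 to 1.63 CPM over the remaining Chow mice and 4.20 to 9.15 CPM in HSD. These values are set beside the results they move with. In bulk tissue, fewer cells of a type and less RNA per cell cannot be told apart.

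On HSD, 2 of the 37 genes were upregulated and 2 were downregulated at an adjusted p value below 0.05, against 3.44% of all genes tested for upregulation and 3.23% for downregulation, or 6.67% in either direction. The upregulated genes were *Atf6* and *Eif2ak3*, which encode 2 of the 3 sensors, and the downregulated genes were *Derl3*, an ERAD channel component, and *Creb3l3*. None of the 15 chaperones, the 4 genes of the ATF4 branch or the 6 translocation genes passed the test in either direction. Before adjustment, 12 of the 37 genes had a p value below 0.05 in edgeR, 3 higher and 9 lower, against 23.7% of all genes. The median log2 fold change of HSD against Chow was -0.08 over the 37 genes and -0.0039 over all genes tested.

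**Figure D1:**
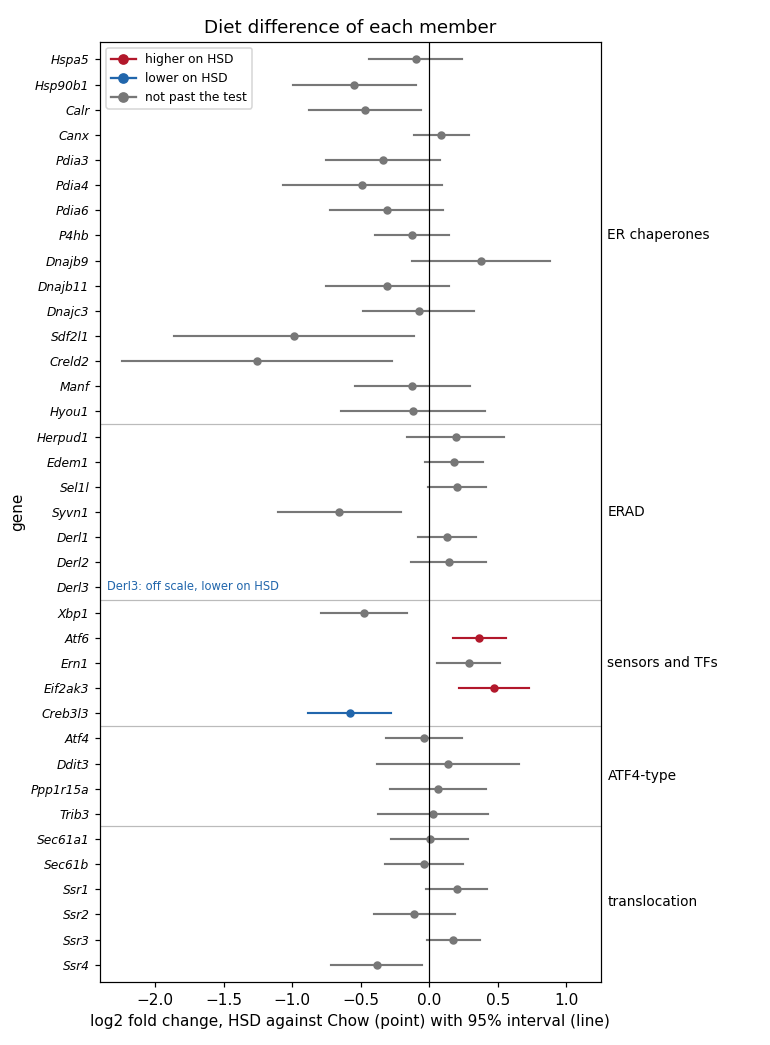
Log2 fold change of HSD (n = 4) against Chow (n = 5) for each of the 37 genes, grouped by role, where points are edgeR estimates and lines are 95% intervals. *Atf6* and *Eif2ak3* (red) lay above 0 and *Creb3l3* (blue) below 0 at the adjusted threshold, while *Derl3*, at -4.81 (95% interval -7.57 to -2.04), lay beyond the left edge of the axis.

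Among the genes with a promoter entry, a promoter element was found in 7 chaperones and in 2 ERAD genes, and its sequences are shown for some of them. The chaperones *Hyou1* and *Manf* and the ERAD gene *Derl1* had no entry and were not searched. The ER stress response element (ERSE) consists of CCAAT, 9 bases of any kind and CCACG. In mammals NF-Y binds its CCAAT block, and ATF6 or XBP1 the CCACG block. Of the 37 genes, 31 were matched to a RefSeq promoter (GRCm38.p6), a window of 300 bases with 250 before and 50 after the start. The element was found on either strand in 9 of these 31 genes, or 29%, and in 39 of 32851 promoters of the whole table, or 0.119%. The 9 genes were *Hspa5*, *Hsp90b1* with 2 copies, *Calr*, *Canx*, *Pdia6*, *Dnajc3*, *Creld2*, *Syvn1* and *Derl3*. Matches are given 5′ to 3′ on the strand that reads CCAAT first, with 5 bases on either side and the CCAAT and CCACG blocks in capitals. They are descriptions of the letters and not evidence of binding in these livers. *Hspa5* is shown as the central chaperone, *Hsp90b1*, *Calr* and *Creld2* as the chaperones with the element and the largest negative changes, and *Syvn1* and *Derl3* as the ERAD genes that carry it.
Hspa5, chr2:34772020-34772048, plus strand: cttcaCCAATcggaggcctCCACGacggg
Hsp90b1, chr10:86705633-86705661, minus strand: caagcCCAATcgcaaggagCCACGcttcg
Hsp90b1, chr10:86705528-86705556, plus strand: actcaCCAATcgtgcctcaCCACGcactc
Calr, chr8:84847070-84847098, plus strand: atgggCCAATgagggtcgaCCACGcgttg
Creld2, chr15:88819515-88819543, minus strand: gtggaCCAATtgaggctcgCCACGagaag
Syvn1, chr19:6046527-6046555, plus strand: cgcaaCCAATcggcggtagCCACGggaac
Derl3, chr10:75893237-75893265, minus strand: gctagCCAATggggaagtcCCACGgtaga

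The 9 genes with the element had a median log2 fold change of -0.47, and 8 of the 9 were negative, with *Derl3* past the test. The 22 matched genes without it had a median of 0.05. Among chaperones alone the medians were close, at -0.31 for the 7 with the element and -0.32 for the 6 matched genes without it. These medians rested partly on Chow 1 and Chow 3. Without Chow 1, the median was -0.32 for the 9 genes, -0.18 for the 7 chaperones with the element and -0.15 for the 6 without it. Without both livers the 3 medians were -0.15, -0.11 and 0.010. The median of the 22 matched genes ranged from -0.021 without HSD 2 to 0.12 without Chow 2 when each liver was left out. Outside the 37 genes, 28 genes carried the element, and the 8 of them that were tested had a median of 0.22 with *Acacb* upregulated and none downregulated. A shorter relative of the element, ERSE-II (ATTGG, 1 base of any kind and CCACG), was found in *Dnajb11* and *Herpud1*, and in 0.0365% of all promoters.
Herpud1, chr8:94386368-94386396, plus strand: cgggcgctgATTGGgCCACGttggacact
The XBP1 motif TGACGTGG was found in none of the 31 windows and in 0.676% of all promoters. The ATF4-C/EBP composite motif TGATGNAA was found in *Herpud1* and *Trib3*, and in 3.97% of all promoters.

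Among the 15 ER chaperones, no gene passed the test on HSD, although 13 of the 15 estimates were negative. Their median log2 fold change was -0.31. Before adjustment, 4 chaperones had a p value below 0.05 in edgeR, a share close to the 23.7% of all genes, and all 4 were lower: *Hsp90b1*, *Calr*, *Sdf2l1* and *Creld2*. The chaperones differed widely between Chow livers and little between HSD livers, a pattern shared with other classes as given below.

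*Creld2*, an ER protein linked to disulphide folding and known to be induced by ER stress, had the largest estimate of the class. It stood at 114, 53.4, 65.7, 16.6 and 22.5 CPM in Chow 1 to 5 and at 20.5, 27.3, 19.1 and 23.95 CPM in HSD 1 to 4. Chow 1, 2 and 3 were above every HSD liver, whereas Chow 4 was below every HSD liver. This was a log2 fold change of -1.26 ± 0.45 (SE), with an adjusted p value of 0.118 from edgeR, and -0.80 without Chow 1. *Hsp90b1*, which encodes the chaperone GRP94, stood at 1496, 989.9, 1306, 680.3 and 775 CPM in Chow 1 to 5 and at 725, 688, 707 and 757 CPM in HSD 1 to 4. The same Chow livers were high and Chow 4 was again the lowest of all 9. Its log2 fold change was -0.55 ± 0.21 (SE; adjusted p value 0.134 from edgeR). About 12.3% of the 31-base sequences of *Hsp90b1* also occur in overlapping genes, and no source used here says how the counting treated strand.

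*Hspa5*, the most central ER chaperone (BiP), which also holds the 3 sensors inactive, differed by less than the spread between livers. The CPM values were 820.1, 934, 608, 529 and 696 in Chow 1 to 5, and 614, 716, 641 and 709 in HSD 1 to 4, so the HSD livers lay inside the Chow range. The log2 fold change was -0.10 with a 95% interval of -0.44 to 0.24. *Calr*, the lectin chaperone calreticulin, ranged from 704 to 1453 CPM in Chow and from 695 to 765 CPM in HSD, with a log2 fold change of -0.47 ± 0.19 (SE; adjusted p value 0.154 from edgeR). *Sdf2l1*, which joins the BiP chaperone cycle, ranged from 13.6 to 71.9 CPM in Chow and from 14.2 to 21.1 CPM in HSD (log2 fold change -0.99 ± 0.40; adjusted p value 0.162 from edgeR). In both genes the upper end of the Chow range was set by Chow 1, and without that liver *Sdf2l1* was at -0.59.

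The remaining chaperones gave estimates between -0.49 and 0.38. The protein disulphide isomerases *Pdia3*, *Pdia4*, *Pdia6* and *P4hb*, which form and reshuffle disulphide bonds, were at -0.34, -0.49, -0.31 and -0.13. The BiP co-chaperones *Dnajb11* and *Dnajc3* were at -0.31 and -0.08, the BiP nucleotide exchange factor *Hyou1* at -0.12, and the secreted stress factor *Manf* at -0.12. Without Chow 1, *Pdia3*, *Pdia4*, *Pdia6* and *Dnajb11* were at -0.19, -0.23, -0.18 and -0.11. The positive estimates were those of *Canx*, the membrane-bound lectin chaperone calnexin, at 0.09, and *Dnajb9* (ERdj4), a BiP co-chaperone that restrains IRE1, at 0.38. *Dnajb9* ran opposite to the class, with its lowest values in Chow 1 and Chow 3 (17.2 and 16.9 CPM) and its highest in HSD 3 (43.0 CPM), and without either of those Chow livers its estimate was 0.25. About 10.8% of its 31-base sequences are shared with a copy elsewhere, *Gm6568*, so its counts are less certain.

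**Figure D2:**
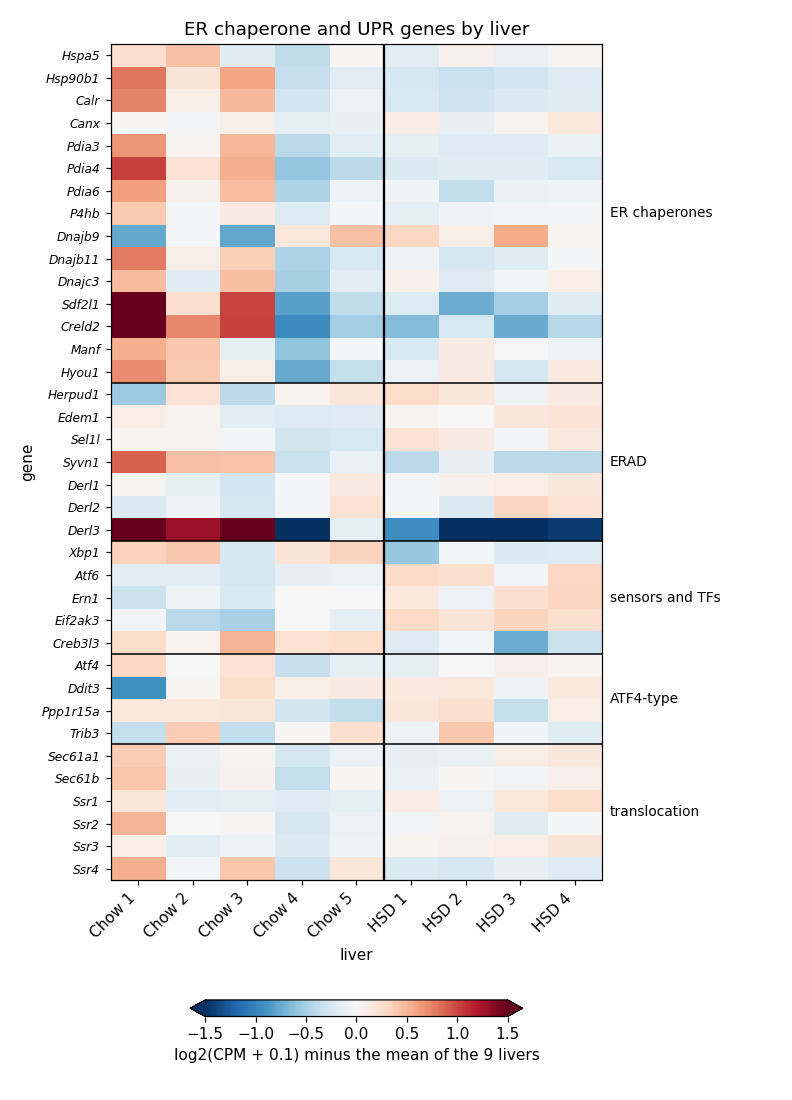
Level of each of the 37 genes (rows, grouped by role) in each liver (columns) as log2(CPM + 0.1) centred on the average of the 9 livers, with the colour scale ending at -1.5 and 1.5. Chow 1, and less so Chow 3, are red and Chow 4 is blue for most chaperones, while most cells of the 4 HSD columns are pale.

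The spread within each diet was measured as the standard deviation (SD) of log2 CPM. It was larger in Chow than in HSD for 14 of 15 chaperones (93.3%) and for 32 of the 37 genes (86.5%), and also for 65.4% of all genes tested. The median SD of the chaperones was 0.457 in Chow and 0.121 in HSD, beside 0.229 and 0.176 over all genes. The SD was also larger in Chow for all 6 translocation genes, with medians of 0.263 in Chow and 0.0875 in HSD. In the ATF4 branch this held for all 4 genes (medians 0.308 and 0.183). The difference in spread was not tested, and 4 or 5 livers set each SD.

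Chow 1 was the highest of the 9 livers in 12 of 15 chaperones, and Chow 4 was the lowest in 13 of 15. Over all genes tested, the share with the highest level in Chow 1 was 19.6% and the share with the lowest in Chow 4 was 9.18%. The mean level of the class, in log2 CPM centred on the 9 livers, was 0.64, 0.17, 0.31, -0.45 and -0.15 in Chow 1 to 5 and -0.13, -0.17, -0.15 and -0.07 in HSD 1 to 4. The HSD livers therefore sat within the Chow range, above Chow 4 and below Chow 2. Chow 1 was the liver with high acute phase genes, and Chow 1 and Chow 3 were the Chow livers with high *Arntl*. Every HSD liver likewise had more *Arntl* than Chow 2, 4 and 5, with chaperone levels of -0.17 to -0.07. The level of 6 Kupffer cell and macrophage markers was also highest in Chow 1 (0.83) and Chow 3 (0.45), and ranged from -1.05 to 0.20 in the other livers, with 0.20 in Chow 4. The part of the acute phase state, of the time of day or of these cells in the chaperone levels was not tested. Chow 4, the liver with the lowest chaperone level, lay within the range of the other livers for the acute phase level (-0.55), and its *Arntl*, at 1.35 CPM, was the lowest of the 9.

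Without Chow 1 and Chow 3, a comparison chosen after seeing the data, the median of the chaperones was -0.0015 and no chaperone passed the test. Part of this shift follows from leaving out livers that were high in the class. With the log2 ratio of *Arntl* to *Dbp*, another clock gene, as a covariate, also chosen after seeing the data, the median was -0.45, and *Hsp90b1*, *Calr*, *Sdf2l1* and *Creld2* passed the test as lower. Leaving out each liver in turn gave medians between -0.43 and -0.11, the latter without Chow 1. In limma on TPM with a mean of at least 1, the median was -0.07, on a scale whose median over all genes stood at 0.14 to 0.16.

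**Figure D3:**
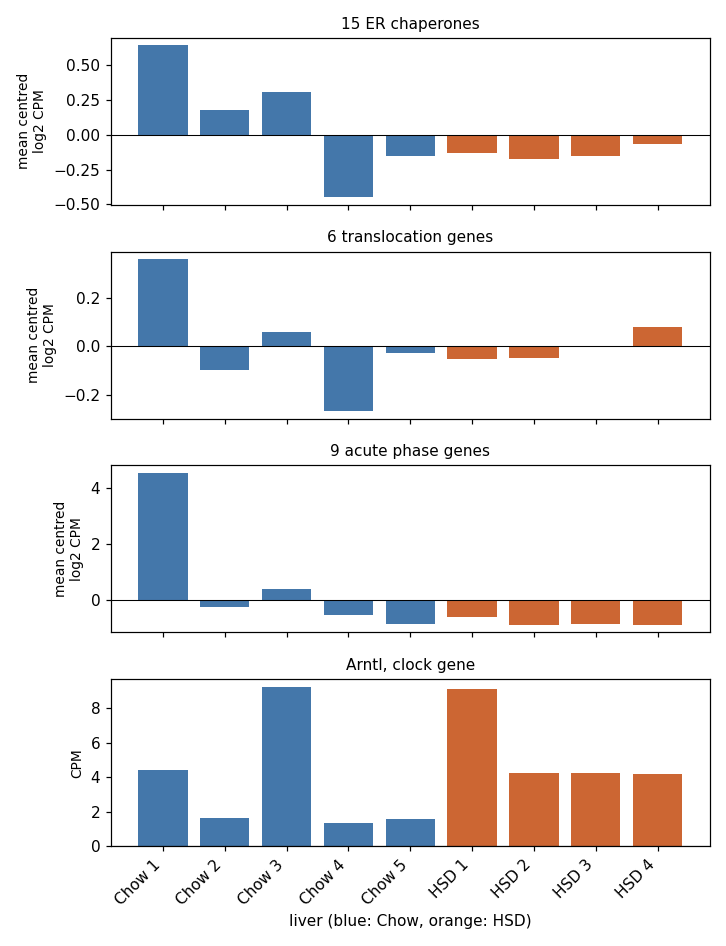
Mean level of the 15 chaperones, the 6 translocation genes and 9 acute phase genes in each liver, as log2 CPM centred on the mean of the 9 livers, and the CPM of the clock gene *Arntl* (bottom panel), with Chow in blue and HSD in orange. The chaperone level was highest in Chow 1 (0.64) and lowest in Chow 4 (-0.45), the acute phase level stood at 4.55 in Chow 1, and *Arntl* was highest in Chow 3 (9.24 CPM) and HSD 1 (9.15 CPM).

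Of the 7 ERAD genes, *Derl3* was downregulated on HSD and the other 6 did not pass the test. The median log2 fold change of the class was 0.14, with 5 of 7 estimates positive. *Derl3* (GRCm38 chr10:75893413-75895941, plus strand) encodes a derlin, a membrane protein that takes part in moving misfolded proteins out of the ER. It stood at 37.3, 4.79, 38.8, 0.150 and 1.72 CPM in Chow 1 to 5 and at 0.943, 0.295, 0.410 and 0.634 CPM in HSD 1 to 4. These correspond to estimated counts of 576, 82, 806, 4 and 22 in Chow and 20, 6, 6 and 16 in HSD.

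The groups overlapped in *Derl3*, because Chow 4 was below every HSD liver while Chow 1 and Chow 3 were the highest of all. HSD differed from Chow by a log2 fold change of -4.81 ± 1.27 (SE), with an adjusted p value of 0.0430 from edgeR. Without Chow 1 it was -4.29 (adjusted p value 0.0531), without Chow 3 it was -4.20 (adjusted p value 0.0771), and without both it was -1.90 (adjusted p value 0.168), all from edgeR. Leaving out any of the HSD livers gave -5.15 to -4.59 and adjusted p values of 0.105 to 0.118 from edgeR. The estimate was smaller in limma, at -2.74 with voom (adjusted p value 0.580) and -2.17 to -1.92 on TPM (adjusted p values 0.213 to 0.335). *Derl3* is known to be expressed strongly in secretory cells such as plasma cells and pancreatic acinar cells. Markers of plasma and B cells summed to 0.780 to 3.37 CPM in Chow and 1.90 to 4.23 CPM in HSD. Of 5 acinar markers, *Cpa1*, *Pnlip* and *Cel* were at 0 counts in all 9 livers, but *Cela1* was downregulated on HSD (log2 fold change -0.81, adjusted p value 0.0292 from edgeR), at 13.71 to 23.9 CPM in Chow and 6.88 to 13.65 CPM in HSD. Among the Chow livers *Cela1* was lowest in Chow 1, where *Derl3* was high. The part of these cells in the *Derl3* values was not tested.

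*Syvn1*, the ubiquitin ligase HRD1 of the main ERAD complex, was the next gene of the class. It ranged from 59.0 to 137 CPM in Chow and from 55.8 to 68.1 CPM in HSD, with the high values in Chow 1, 2 and 3, as in the chaperones. Its log2 fold change was -0.65 ± 0.21 (SE) and did not pass the test (adjusted p value 0.0792 from edgeR), although it did in DESeq2. Its partner *Sel1l*, which recruits substrates to the ligase, was at 0.20, the mannosidase-like *Edem1* at 0.18, the derlins *Derl1* and *Derl2* at 0.13 and 0.14, and the ligase-linked *Herpud1* at 0.19. In these 5 genes the diets overlapped. *Herpud1* was lowest in Chow 1 and Chow 3 (278 and 309 CPM, where the remaining 7 livers ranged from 384 to 491 CPM), the reverse of the pattern in *Derl3*, *Syvn1* and most chaperones.

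The 5 sensors and transcription factors held 3 of the 4 genes that passed the test, against 6.67% of all genes called, and all 5 had a p value below 0.05 before adjustment in edgeR, against 23.7% of all genes. Their median log2 fold change was 0.29. The sensors *Atf6*, *Ern1* and *Eif2ak3* gave positive estimates and the transcription factors *Xbp1* and *Creb3l3* negative ones. The SD of log2 CPM was larger in Chow than in HSD for 2 of 5 genes of this class.

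*Atf6* (chr1:170704674-170867771, minus strand) was upregulated on HSD. It stood at 73.7, 73.8, 69.0, 75.5 and 77.4 CPM in Chow 1 to 5 and at 100.9, 97.2, 80.1 and 101.9 CPM in HSD 1 to 4. Every HSD liver was above every Chow liver, which was so for 5.84% of all genes tested. Its log2 fold change was 0.36 ± 0.09 (SE; adjusted p value 0.0324 from edgeR), or 1.29-fold. *Atf6* was close to even among the Chow livers, including those with high chaperone levels. Its call was lost when Chow 2, 3, 4 or 5 or HSD 1, 2 or 4 was left out, with estimates of 0.33 to 0.37 and adjusted p values of 0.0512 to 0.110 from edgeR.

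*Eif2ak3* (chr6:70844515-70905245, plus strand), which encodes the kinase PERK, was also upregulated. It stood at 13.8, 10.7, 10.1, 14.2 and 12.9 CPM in Chow 1 to 5 and at 17.5, 16.3, 18.0 and 16.9 CPM in HSD 1 to 4. The groups did not overlap. The log2 fold change was 0.47 ± 0.12 (SE; adjusted p value 0.0340 from edgeR), or 1.39-fold. This call was lost without Chow 2, 3 or 5 or without any of the 4 HSD livers, with estimates of 0.41 to 0.50 and adjusted p values of 0.0571 to 0.0950 from edgeR. A gene on the opposite strand, *Gm43292*, overlaps 8.05% of its exonic bases, and reads of the 2 genes cannot be told apart without strand. *Ern1*, the sensor IRE1, was at 60.3, 71.7, 64.4, 74.9 and 75.8 CPM in Chow 1 to 5 and at 84.2, 70.8, 89.3 and 94.5 CPM in HSD 1 to 4, with HSD 2 inside the Chow range. Its log2 fold change of 0.29 ± 0.11 (SE) did not pass the test (adjusted p value 0.124 from edgeR).

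*Creb3l3* (chr10:81084324-81098874, minus strand) was downregulated on HSD. It stood at 315, 269, 371, 304 and 315 CPM in Chow 1 to 5 and at 227, 253, 155 and 206.6 CPM in HSD 1 to 4. Every HSD liver was below every Chow liver, which was so for 5.51% of all genes tested. The log2 fold change was -0.58 ± 0.14 (SE; adjusted p value 0.0314 from edgeR), or 0.668-fold. Chow 1, the liver with high acute phase genes, was not set apart in *Creb3l3*. The call was lost without Chow 3 or 5 or HSD 1, 3 or 4, with estimates of -0.62 to -0.46 and adjusted p values of 0.0555 to 0.0926 from edgeR.

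*Xbp1* stood at 284, 295, 187, 255 and 281 CPM in Chow 1 to 5 and at 149, 216, 191 and 193 CPM in HSD 1 to 4. Chow 3 alone among the Chow livers lay within the HSD range. The log2 fold change was -0.47 ± 0.14 (SE) and did not pass the test (adjusted p value 0.0733 from edgeR). It did so without Chow 3 (log2 fold change -0.57, adjusted p value 0.0220 from edgeR) and in DESeq2. *Derl3*, known as a target of XBP1, had its highest level in Chow 3, the lowest of the Chow livers in *Xbp1*. These gene-level values do not show the splicing of *Xbp1*, and the part of XBP1 in the *Derl3* levels was not tested.

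**Figure D4:**
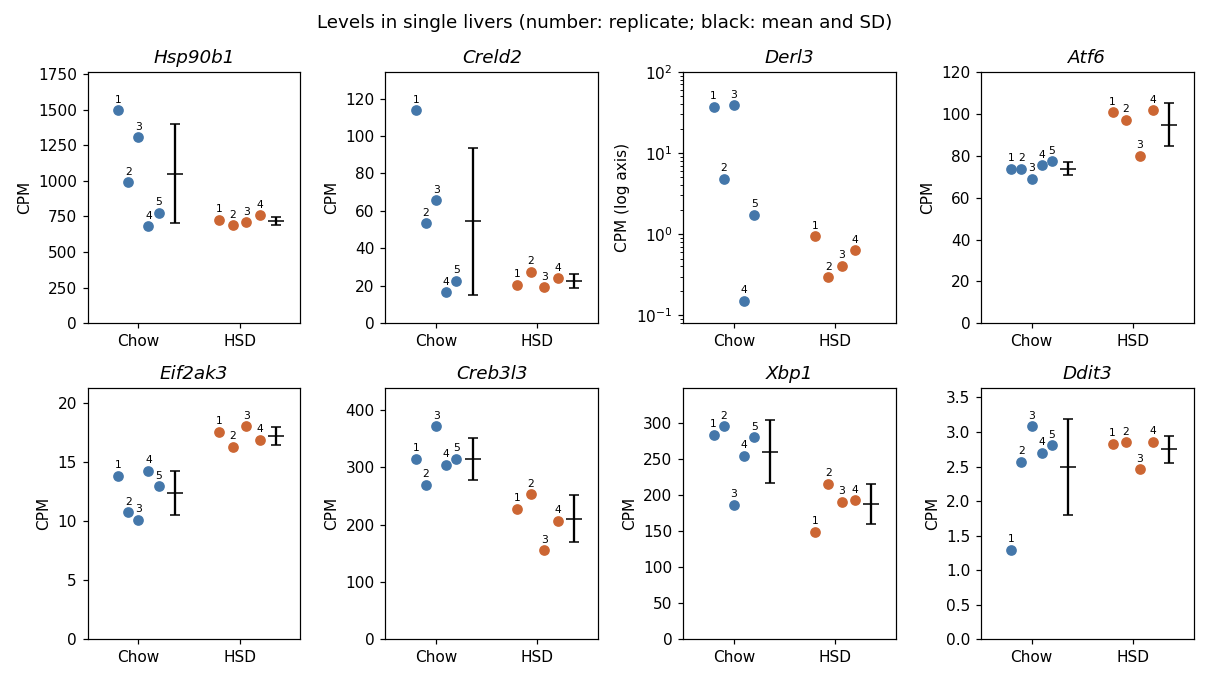
CPM of 8 genes in each liver, with the replicate number above each point and the mean and SD in black (*Derl3* on a log axis, without mean and SD). *Atf6* and *Eif2ak3* were higher and *Creb3l3* lower in every HSD liver than in every Chow liver, while *Hsp90b1*, *Creld2* and *Derl3* were high in Chow 1 to 3 and low in Chow 4.

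The library labels fall into 2 series, and the 4 calls were also computed with the series in view. The first series holds Chow 1 to 4 with HSD 1 and 2, and the other holds Chow 5 with HSD 3 and 4, too few Chow livers for a test within it. Within the first series, the log2 fold change was 0.44 for *Atf6*, 0.46 for *Eif2ak3*, -0.39 for *Creb3l3* and -5.0002 for *Derl3*, and the adjusted p values from edgeR ran from 0.149 to 0.345. With the series as a covariate, the log2 fold changes were 0.37, 0.46, -0.53 and -4.08 in the same order, and the adjusted p values from edgeR ran from 0.0566 to 0.127. Each of the 4 calls was therefore lost in both fits, with its direction kept. Across the whole table, calls fell from 807 to 34 within the first series and to 552 with the covariate.

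The 4 genes of the ATF4 branch showed no difference past the test and none with an unadjusted p value below 0.05 in edgeR. Their median log2 fold change was 0.05. *Atf4*, the transcription factor of the branch, which is controlled mainly at translation, stood at 68.2, 54.7, 63.9, 43.0 and 49.8 CPM in Chow 1 to 5 and at 49.3, 55.1, 57.7 and 55.8 CPM in HSD 1 to 4. The HSD livers lay inside the Chow range, with a log2 fold change of -0.04 (95% interval -0.31 to 0.24).

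*Ddit3*, which encodes the pro-apoptotic factor CHOP, was at 1.29, 2.57, 3.08, 2.70 and 2.81 CPM in Chow 1 to 5 and at 2.83, 2.85, 2.46 and 2.86 CPM in HSD 1 to 4. Its lowest level was in Chow 1, the liver with the highest chaperone level. The log2 fold change was 0.14, with a 95% interval of -0.38 to 0.66. *Ppp1r15a* (GADD34), which restores translation after PERK has acted, was at 0.07 (95% interval -0.28 to 0.42), and the pseudokinase *Trib3*, a target of ATF4 and CHOP, at 0.03 (95% interval -0.37 to 0.43). The 95% intervals do not exclude increases up to these upper bounds.

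The 6 translocation genes also had no member past the test, and their median log2 fold change was -0.02. *Ssr4*, a subunit of the translocon-associated protein complex, had the largest estimate. It stood at 79.2, 52.5, 72.5, 43.1 and 61.3 CPM in Chow 1 to 5 and at 46.4, 45.5, 50.1 and 47.3 CPM in HSD 1 to 4. The HSD values lay within the Chow range, close to its lower end, with a log2 fold change of -0.38 ± 0.15 (SE; adjusted p value 0.152 from edgeR). The other subunits of that complex, *Ssr1*, *Ssr2* and *Ssr3*, were at 0.20, -0.11 and 0.18, and the channel genes *Sec61a1* and *Sec61b* at 0.0023 and -0.04. Chow 4 was the lowest liver in 6 of 6 of these genes and Chow 1 the highest in 4 of 6. *Sec61b* and *Ssr2* share 23.5% and 15% of their 31-base sequences with other genes, so their counts are less certain.

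Per transcript length, given as TPM, in which counts are divided by length and scaled to a common sum, the levels of the 37 genes spanned a wide range. *Calr* had the highest mean in Chow, at 771 ± 179 TPM, and stood at 613 ± 25.6 TPM in HSD (SD, n = 5 and 4). *P4hb* had the highest mean in HSD, at 691 ± 24.9 TPM, and stood at 666 ± 49.5 TPM in Chow. *Hspa5* was at 392 ± 80.9 TPM in Chow and 417 ± 28.1 TPM in HSD. The sensors were among the scarcest, with *Atf6* at 12.1 ± 1.24 TPM and *Eif2ak3* at 3.47 ± 0.602 TPM in Chow, the lowest level of the 37 genes. The transcription factors *Creb3l3* and *Xbp1* were more abundant, at 190 ± 26.5 and 164 ± 29.4 TPM in Chow. Summed over the 15 chaperones, the level was 3402 ± 608 TPM in Chow and 3125 ± 96.7 TPM in HSD, and the diets overlapped. On the TPM scale the median of all genes shifted by 0.14 (log2) towards HSD, so TPM differences are read against that shift.

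Further genes of the same pathways were taken from lists of known members. Of 20 further folding genes, 1 passed the test: *Ppib*, an ER cyclophilin that helps collagen and other proteins fold, was downregulated (log2 fold change -0.59, adjusted p value 0.0380 from edgeR). It stood between 178 and 313 CPM in Chow and between 142 and 182 CPM in HSD. Of 18 further ERAD genes, 1 passed, the mannosidase *Edem3*, which was upregulated (0.40, adjusted p value 0.0119) with every HSD liver (39.7 to 44.2 CPM) above every Chow liver (27.8 to 33.5 CPM). Of 25 further genes of the translocon and of N-glycosylation, 1 passed, the oligosaccharyltransferase subunit *Stt3b*, upregulated by 0.39 (adjusted p value 0.0191). These 3 lists had medians of -0.01, 0.08 and 0.06, and their shares of calls were near the background of all genes.

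Of 25 tested genes known to be activated by ATF4, 2 were upregulated and 2 downregulated, against 3.44% and 3.23% of all genes. *Fgf21*, a hepatic hormone, rose by 2.99 on the log2 scale (adjusted p value 0.00199 from edgeR) from 0.300 to 0.866 CPM in Chow to 2.86 to 7.86 CPM in HSD. *Psat1*, of serine synthesis, rose by 1.71 (adjusted p value 0.0210) at low levels of 0.225 to 0.780 CPM in Chow and 1.23 to 1.98 CPM in HSD. *Cth*, which makes cysteine from cystathionine, was downregulated (-1.28, adjusted p value 0.00164), as was the mitochondrial serine enzyme *Shmt2* (-0.54, adjusted p value 0.00687). In none of these 4 genes did the diets overlap. Over the 25 genes, every HSD liver was above every Chow liver in 3 and below in 2, against 5.84% and 5.51% of all genes tested.

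Of 12 genes known as targets of CREBH, 3 were upregulated on HSD and none downregulated, against 3.44% and 3.23% of all genes, while *Creb3l3* itself was lower. They were *Apoa4*, an apolipoprotein of triglyceride-rich particles, *Fgf21*, which is also on the ATF4 list, and *Apoc2*, the activator of lipoprotein lipase. *Apoa4* stood between 167 and 258 CPM in Chow and between 1103 and 2081 CPM in HSD, a log2 fold change of 2.82 (adjusted p value 3.18e-05 from edgeR). *Apoc2* was at 0.71 (adjusted p value 0.0151). The remaining 9 genes of the list did not pass the test, and its median was 0.16. The apolipoprotein and *Fgf21* genes are controlled by other factors too, and what set their levels was not tested.

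Among 22 partners and regulators of the sensors, 1 gene passed the test, *Nfyb*, a subunit of the NF-Y factor that binds CCAAT, upregulated by 0.54 (adjusted p value 0.0282 from edgeR). Of 15 chaperones of the cytosol and mitochondria, 1 passed, the mitochondrial co-chaperonin *Hspe1*, which was downregulated (-0.51, adjusted p value 0.00657). The shares of calls in both lists were near the 6.67% of all genes. The 9 acute phase genes and 8 clock genes had no member past the test. The 9 acute phase estimates were all negative, with a median log2 fold change of -1.74. Of these 9 genes, 6 had an unadjusted p value below 0.05 in edgeR, against 23.7% of all genes. Their mean level was by far the highest in Chow 1 (4.55 on the centred log2 scale). Markers of Kupffer cells and macrophages summed to 114 to 235 CPM in Chow and 69.8 to 143 CPM in HSD, an overlap. All 6 estimates were negative with a median of -0.56, and 4 of the 6 had an unadjusted p value below 0.05 in edgeR, but none passed the test. Their part in the results was not tested.

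Set side by side, the role classes differed in median and in which livers stood out. The median log2 fold changes were -0.31 for the chaperones, 0.14 for ERAD and 0.29 for the sensors and transcription factors. They were 0.05 for the ATF4 branch and -0.02 for translocation, beside -0.0039 for all genes. The sensor class was mixed, with *Atf6*, *Ern1* and *Eif2ak3* positive and *Xbp1* and *Creb3l3* negative. Its summed level averaged 382 TPM in Chow and 315 TPM in HSD, and the diets overlapped. No test compared the classes, since genes of a class share livers and are not replicates of a diet. The high levels of Chow 1 and the low levels of Chow 4 recurred in the chaperones and translocation genes. In the sensors and transcription factors, Chow 1 was the highest liver in 0 of 5 genes and Chow 4 the lowest in 0 of 5. Over all genes tested these shares were 19.6% and 9.18%, so 0 of 5 genes does not set this class apart.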

How the data were processed

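The authors prepared poly-A libraries, sequenced paired reads and quantified them with kallisto, and GENCODE M21 and GRCm38 are named in the submitters' processing notes. The deposited tables hold unscaled estimated counts for each gene symbol and TPM values, which sum to 923061 to 945110 per liver here. The kallisto version, the strand setting and the way transcripts were summed to genes are not stated in the sources used here. Kallisto divides reads shared between transcripts, so genes with near-identical copies can exchange counts. Of the count values above 0, 34.1% were whole (within 1e-06) and 99.1% of these were even, and results were also computed with counts halved.

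Counts were rounded, filtered with filterByExpr (count of at least 10, total of at least 15) and normalized with TMM factors. Diet was tested in edgeR 4.0.16 (R 4.3.3) by the quasi-likelihood test (7 residual degrees of freedom), with Benjamini-Hochberg adjustment over 12091 genes and a threshold of 0.05. CPM values are TMM-normalized, log2 CPM used a prior count of 2, and 95% intervals used the fit's total degrees of freedom. The SE is the absolute log2 fold change divided by the square root of the test's F statistic. The biological coefficient of variation was 0.187. The scripts were tested on simulated data. No replicates were alike within sampling noise.

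The genes and lists were chosen with earlier results of these data known. Per liver values are given for each gene of the 37 past the test, for the largest change of each class and for 7 genes set by name. Of the other lists, up to 4 genes past the test are named. *Calr*, *Sdf2l1*, *Syvn1*, *Dnajb9*, *Herpud1*, *Saa2*, *Hp*, *Arntl* and *Dbp* are described further because of their values. Promoters are from RefSeq (no entry for *Atf6*, *Derl1*, *Hyou1*, *Manf*, *Sec61a1* and *Ssr2*). Gene positions are from GENCODE. Alternatives were DESeq2 1.42.0, DESeq2-type size factors, library totals, no filter, limma voom (limma 3.58.1), limma on the log2 of TPM with 1 or 0.1 added (genes averaging 1 TPM or more, and with 1 added for all genes), the replicate number as a block, the label series, halved counts, a threshold of 0.01 and each liver left out. Leaving out Chow 1 with Chow 3, and a clock covariate, were added after seeing the data. The tables held 0 columns of other samples.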

Additional observations from a re-analysis of the deposited data

Results flagged for a closer look

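Within a diet, a liver that lay far from the others was looked for. The search covered each of the 37 genes and the mean centred log2 CPM of each class. It picked out 5 of 84 groups of livers (5.95%), where chance picks out about 1 in 20. *Ddit3* in Chow 1 lay 1.05 on the log2 scale below the mean of the other Chow livers (-1.05), and *Ddit3* in HSD 3 lay below the other HSD livers (-0.203), at few counts in both. *Ssr1*, of the translocon-associated complex, was higher in Chow 1 than in the other Chow livers by 0.335. Against the mean of the other HSD livers, HSD 2 was lower in the disulphide isomerase *Pdia6* (-0.298) and higher in the ubiquitin ligase *Syvn1* by 0.276. No cause was tested for any of the 5.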

How the results depend on the processing

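*Derl3*, *Atf6*, *Eif2ak3* and *Creb3l3* kept their directions in every setting tried, but not their calls, with adjusted p values of 0.00194 to 0.580, 0.00338 to 0.149, 0.00887 to 0.286 and 0.00146 to 0.345 over the settings of edgeR, DESeq2 and limma. The 2 upregulated genes became 0 with the label series as a covariate, within the first label series and at a threshold of 0.01, 1 without Chow 1 and Chow 3 (*Eif2ak3*), and 3 in limma on TPM with a mean of at least 1, where *Ssr3* joined on a scale that moved the median of all genes by 0.14 to 0.16. Leaving out each liver in turn gave 0 to 2. It was 0 without Chow 2, 3 or 5 or HSD 1, 2 or 4, and 1 without Chow 4 or HSD 3. The 2 downregulated genes became 4 in DESeq2, with *Syvn1* and *Xbp1* added, 1 in limma voom (*Creb3l3*), 0 in the 3 limma fits on TPM, 0 in both label series fits and at the threshold of 0.01, and 8 with the clock covariate. Leaving out each liver gave 0 to 5. It was 5 without Chow 4 (*Creld2*, *Syvn1*, *Derl3*, *Creb3l3* and *Ssr4*), 1 without Chow 1, Chow 3, Chow 5 or HSD 2, and 0 without HSD 1, 3 or 4. Calls over all genes fell from 807 to between 302 and 638 in 8 of the 9 such fits and were 968 without Chow 1. They were 1066 without Chow 1 and Chow 3. What caused the loss of calls was not tested.

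The median of the sensors and transcription factors was 0.45 (log2(TPM + 1), filtered or not), 0.48 (log2(TPM + 0.1)), 0.19 in the first label series and 0.18 without Chow 1 and Chow 3. In the 3 TPM fits that of the translocation genes was 0.19, that of the chaperones -0.07, and that of ERAD 0.27. With each liver left out, the medians ran from -0.43 to -0.11 for the chaperones, 0.10 to 0.18 for ERAD, 0.23 to 0.35 for the sensors, -0.02 to 0.12 for the ATF4 branch and -0.09 to 0.09 for translocation. On TPM, the share of calls over all genes that were higher was 82.5%, and with library totals 69.1%, against 51.5%.

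No gene past the test changed sign, but others did. Without Chow 1 and Chow 3 these were *Atf4* (0.14), *Dnajb11* (0.046), *Dnajc3* (0.26), *Herpud1* (-0.033), *Hyou1* (0.14), *P4hb* (0.015), *Pdia3* (0.0055), *Sec61b* (0.13), *Ssr2* (0.055) and *Trib3* (-0.19), of which *Pdia3* had been at -0.34, *Dnajb11* at -0.31 and *Herpud1* at 0.19 with all livers. On TPM with 1 added, filtered or not, they were *Atf4* (0.15), *Dnajc3* (0.13), *Hspa5* (0.11), *Hyou1* (0.15), *Manf* (0.0060), *P4hb* (0.055), *Sec61b* (0.17) and *Ssr2* (0.093), and with 0.1 added *Atf4* (0.15), *Dnajc3* (0.14), *Hspa5* (0.11), *Hyou1* (0.15), *Manf* (0.0063), *P4hb* (0.055), *Sec61b* (0.17) and *Ssr2* (0.094). Library totals gave *Atf4* 0.041, *Dnajc3* 0.0053 and *Sec61b* 0.040. *Sec61a1* was -0.0014 in DESeq2, -0.0015 with its size factors, -0.057 with the clock covariate, where *Ppp1r15a* was -0.0064, -0.15 in the first label series and -0.027 with the series as covariate. Leaving out each liver gave -0.12 to 0.039 for *Atf4*, -0.024 to 0.23 for *Ddit3*, -0.19 to 0.040 for *Dnajc3*, -0.27 to 0.078 for *Hyou1*, -0.26 to 0.010 for *Manf*, -0.12 to 0.074 for *Sec61b*, -0.18 to 0.024 for *Ssr2*, -0.12 to 0.14 for *Trib3*, -0.19 to 0.014 for *Hspa5*, -0.059 to 0.11 for *Sec61a1* and -0.015 to 0.18 for *Ppp1r15a*.

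The replicate numbers did not pair the livers. Deviations of same-numbered livers correlated between -0.061 and 0.066, and 1 of the 4 HSD livers correlated best with its own number. With the replicate number as a block, 0 of the 37 genes were higher and 1 was lower (*Derl3*), *Sec61a1* was -0.0056 and *Ppp1r15a* was -0.015, and calls over all genes went from 807 to 425.

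Precision was limited by the 5 and 4 livers and, in genes with few counts such as *Ddit3*, by depth. *Derl3* had few counts in HSD, and its Chow livers differed widely. Its SD of log2 CPM was 3.08 in Chow and 0.61 in HSD.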
